A study of Homo sapiens with 9 samples.

Results

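Cholesterol synthesis and the lipogenic genes driven by sterol regulatory element-binding proteins (SREBPs) were examined in H295R cells as a set of 35 named genes, of which 32 could be measured among 19775 genes tested. The members were taken by name: enzymes of the mevalonate and sterol arms of cholesterol synthesis, the regulators of SREBP processing, enzymes of fatty acid synthesis and desaturation, and the sterol carrier STARD4. CYP51A1 and FADS1 lay only in probe sets that the array annotation shares with another gene and FDFT1 matched no probe set, so these 3 members were not analysed here. All arrays came from 1 cell line, H295R, which was derived from a human adrenocortical carcinoma and secretes steroid hormones. Cells received the vehicle DMSO, 100 nM angiotensin II or 100 nM of the compound labelled CP-529414, which is torcetrapib, and were read after 3 h. Each group had 3 arrays. The labels give no genotype, no modified allele and no further agent, and whether replicate arrays stem from separate cultures is not stated, so the p-values measure only the spread between these arrays.

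Cholesterol is built from acetyl-CoA through mevalonate, isoprenoid pyrophosphates, squalene and lanosterol. SREBPs are membrane-bound transcription factors that SCAP escorts from the endoplasmic reticulum to the Golgi when sterols are scarce, where the proteases encoded by MBTPS1 and MBTPS2 release the active fragment. INSIG1 and INSIG2 hold the SCAP complex in the endoplasmic reticulum when sterols are plentiful. SREBP-2, encoded by SREBF2, acts mainly on cholesterol genes, and SREBP-1c, a product of SREBF1, mainly on fatty acid genes. In the adrenal cortex cholesterol is the precursor of every steroid hormone. Angiotensin II is a natural stimulus of aldosterone secretion, and torcetrapib is an inhibitor of cholesteryl ester transfer protein.

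Promoters of members called against DMSO are shown first, where the sequence table held them, because SREBPs act through short promoter elements. Each line gives the 250 bases before the annotated transcription start, 5′ to 3′, from RefSeq on GRCh38.p14. IDI1 has 3 annotated starts and ACLY 2, and the most upstream one is shown. Capitals mark any match, on either strand, to TCACNCCAC (a sterol regulatory element), TCACGTGA (a palindromic E-box), CCAAT (a site of NF-Y, a partner of SREBPs), GGGCGG (a site of Sp1) or TGACGTCA (the cAMP response element). SREBF2 was added to the 6 others after the search because it held a sterol regulatory element match.
IDI1, chr10:1056705-1056954, minus strand: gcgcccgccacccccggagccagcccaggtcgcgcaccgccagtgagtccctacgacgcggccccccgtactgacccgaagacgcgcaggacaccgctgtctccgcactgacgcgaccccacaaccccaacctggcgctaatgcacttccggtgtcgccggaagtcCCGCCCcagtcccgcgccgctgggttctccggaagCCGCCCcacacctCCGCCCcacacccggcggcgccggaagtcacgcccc
LSS, chr21:46228775-46229024, minus strand: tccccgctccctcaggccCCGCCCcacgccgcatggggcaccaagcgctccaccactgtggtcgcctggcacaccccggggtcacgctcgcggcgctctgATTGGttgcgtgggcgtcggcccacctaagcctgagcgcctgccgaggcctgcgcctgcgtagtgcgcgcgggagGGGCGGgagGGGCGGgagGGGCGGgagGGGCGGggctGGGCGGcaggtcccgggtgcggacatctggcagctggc
MSMO1, chr4:165327419-165327668, plus strand: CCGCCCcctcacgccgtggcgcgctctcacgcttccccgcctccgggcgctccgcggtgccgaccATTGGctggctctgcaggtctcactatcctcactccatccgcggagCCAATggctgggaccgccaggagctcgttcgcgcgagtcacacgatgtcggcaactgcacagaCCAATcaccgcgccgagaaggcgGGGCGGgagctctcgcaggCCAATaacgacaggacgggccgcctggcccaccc
INSIG1, chr7:155297628-155297877, plus strand: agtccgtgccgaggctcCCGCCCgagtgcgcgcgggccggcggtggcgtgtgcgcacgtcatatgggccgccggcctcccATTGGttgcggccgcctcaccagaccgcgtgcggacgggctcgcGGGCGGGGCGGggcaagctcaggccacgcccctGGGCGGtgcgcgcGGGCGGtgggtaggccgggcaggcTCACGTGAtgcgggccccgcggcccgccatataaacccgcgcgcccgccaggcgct
ACLY, chr17:41919023-41919272, minus strand: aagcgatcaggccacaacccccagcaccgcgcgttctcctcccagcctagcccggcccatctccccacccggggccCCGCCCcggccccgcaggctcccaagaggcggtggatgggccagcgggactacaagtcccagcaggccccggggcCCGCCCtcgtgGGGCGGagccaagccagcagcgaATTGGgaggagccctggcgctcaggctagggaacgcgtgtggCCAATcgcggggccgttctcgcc
SCD, chr10:100346983-100347232, plus strand: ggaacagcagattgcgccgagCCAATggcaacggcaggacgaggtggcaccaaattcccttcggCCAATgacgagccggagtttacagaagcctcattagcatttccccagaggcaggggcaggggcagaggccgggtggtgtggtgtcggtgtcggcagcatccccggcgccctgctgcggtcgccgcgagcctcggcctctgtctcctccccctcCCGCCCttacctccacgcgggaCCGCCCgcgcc
SREBF2, chr22:41832855-41833104, plus strand: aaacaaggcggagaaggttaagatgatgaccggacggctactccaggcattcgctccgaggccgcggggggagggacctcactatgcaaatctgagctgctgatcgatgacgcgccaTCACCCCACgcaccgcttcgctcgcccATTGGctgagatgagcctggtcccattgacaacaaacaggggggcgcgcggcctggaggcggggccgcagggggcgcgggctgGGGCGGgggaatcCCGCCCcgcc

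The motif search covered 300 bases, from 250 before to 50 after each start, and 29 of the 32 measured members had an entry, all but FASN, SQLE and ACAT2, with 42 windows among them. A member was counted if any of its windows held the motif: the IDI1 window shown holds no CCAAT, and both IDI1 windows not shown do. TCACNCCAC was found in 1 of the 29 members, SREBF2, where it lay 133 bases before the start. It was present in 1.13% of all 35116 windows, or 1.39% of the 27305 genes. TCACGTGA was found in 1 member, INSIG1, 56 bases before the start, and in 0.98% of all windows, or 1.18% of genes. CCAAT was present in 22 of the 29 members (75.9%) and in 34.6% of all windows, or 39.7% of the 27305 genes. GGGCGG was present in 26 of the 29 (89.7%) and in 45% of all windows, or 48.3% of genes. TGACGTCA was found in none of the 29 and in 1.85% of all windows, or 2.25% of genes. None of the 5 motifs contains another. Only exact matches were counted, so an element with other letters would be missed. These matches are descriptions of the letters in the window, and their relation to the expression values was not tested.

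Array levels of different genes are not on a common scale, so marker levels check the cell label only roughly. All 6 measured adrenal cortex markers read above the median gene in every group, and 3 of 5 adrenal medulla markers and 8 of 9 fibroblast, endothelial and immune markers read below it. The mean of the fibroblast, endothelial and immune list ranged from 4.79 to 4.91 on the DMSO arrays, 4.84 to 5.04 with angiotensin II and 4.82 to 4.83 with torcetrapib, in log2 units. Treated arrays differed from DMSO in the orphan nuclear receptor gene NR4A2, whose mean log2 level was 6.25 in the DMSO group, 11.10 in the angiotensin II group and 9.88 in the torcetrapib group. One measure of the RNA moved with treatment. ACTB and GAPDH have control probe sets at both ends of their transcripts, and their log2 signal at the 5′ end minus that at the 3′ end is called the 5′ to 3′ index below. The index averaged -0.50 ± 0.22 (SD, n = 3) in the DMSO group, -0.62 ± 0.02 in the angiotensin II group and -0.24 ± 0.03 in the torcetrapib group. DMSO replicate 2, at -0.28, lay with the torcetrapib arrays (-0.28, -0.22 and -0.23) and apart from DMSO replicates 1 and 3 (-0.72 and -0.50).

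With torcetrapib, 6 of the 32 measured members fell and none rose against DMSO. Levels are of bulk RNA, so fewer cells carrying a transcript and less of it per cell cannot be told apart. The 6 were LSS and MSMO1 of the sterol arm, INSIG1 among the regulators, and ACLY, FASN and SCD of fatty acid synthesis and desaturation. The call rested on limma, with Benjamini-Hochberg adjusted p under 0.05 over all 19775 genes. The 6 are 18.8% of the measured members, against 0.566% of all genes called lower and 0.592% called higher in the same comparison. Most members read above the median gene level of 6.73, and these shares were not matched for level. The members were also chosen with earlier results of these data known, so the shares are a description only. At an unadjusted p under 0.05, 12 members passed, all of them lower. The members' median change was -0.06 on the log2 scale, against -0.03 over all genes tested. The torcetrapib and DMSO arrays did not overlap for 11 members in the lower direction and for 2 in the higher one, where the same was true of 10.5% and 6.04% of all genes. The changes were small: FASN, with the largest fall, had 1.40-fold less signal, and the other 5 had 1.13-fold to 1.18-fold less.

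The torcetrapib count depended on single arrays and on the index. It was 0 without DMSO replicate 3 and without each torcetrapib array in turn, 1 without DMSO replicate 1, 3 without angiotensin II replicate 1 and 9 without DMSO replicate 2. All genes called numbered 105 without DMSO replicate 3, and 83, 92 and 84 without torcetrapib replicates 1, 2 and 3. They numbered 94 without DMSO replicate 1, 162 without angiotensin II replicate 1 and 917 without DMSO replicate 2, against 229 with every array. The member count was also 0 with the 5′ to 3′ index as a covariate in the fit, where 76 genes in all were still called. With the mean of all probe sets of a gene the member count was 0 too, where 108 genes in all were called. With the index in the fit, the 6 changes ran from -0.29 (FASN) to -0.15 (MSMO1). The change went from -0.49 to -0.29 for FASN, -0.20 to -0.17 for LSS and -0.18 to -0.15 for MSMO1. It went from -0.23 to -0.20 for SCD, -0.18 to -0.19 for INSIG1 and -0.19 to -0.22 for ACLY. Standard errors were larger, at 0.056 for INSIG1 against 0.040 without the index. In that limma fit the unadjusted p of the 6 ran from 0.00121 (ACLY) to 0.0261 (FASN).

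With angiotensin II, IDI1 alone of the 32 members rose and none fell against DMSO. The share of all genes called was 6.12% (3.36% higher and 2.76% lower). In limma, 5 members passed an unadjusted p under 0.05, IDI1 in the higher direction and ACAT2, EBP, SC5D and SCD in the lower one. The members' median change was -0.02, against 0.01 over all genes, with 13 values above 0 and 19 below. Groups did not overlap for 2 members in the higher direction and 4 in the lower one, against 9.26% and 8.37% of all genes. SCD, at an adjusted p of 0.0530, was called lower without angiotensin II replicate 3 (adjusted p = 0.0146), and EBP was called lower without DMSO replicate 1 (adjusted p = 0.00831).

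The torcetrapib arrays were also set directly against the angiotensin II arrays. Here 8 members were lower and 1, EBP, was higher, together 9 of 32 on the brightest probe sets, where 6.68% of all genes were called lower and 4.61% higher (11.3% in all). The 8 were HMGCS1, IDI1, SQLE, LSS, MSMO1, SCAP, INSIG1 and FASN. At an unadjusted p under 0.05, 15 members passed, 12 lower and 3 higher. The members' median difference was -0.05, against -0.04 over all genes. Groups did not overlap for 4 members in the higher direction and 13 in the lower one, against 10.3% and 18.4% of all genes. IDI1, MSMO1, EBP and FASN were called with each array left out in turn. Among the other 5, LSS lost its call without torcetrapib replicate 3 (adjusted p = 0.0575), INSIG1 without angiotensin II replicate 1 or torcetrapib replicate 1 or 2, and SCAP without angiotensin II replicate 1 or 3 or torcetrapib replicate 1 or 3. HMGCS1 lost it without any angiotensin II array or torcetrapib replicate 1 or 2, and SQLE without replicate 1 or 3 of DMSO or angiotensin II or replicate 2 or 3 of torcetrapib. When each array was centred on its own median, 9 members were called, 7 of them shared with the 9 above, split into 3 higher and 6 lower. With this centring 2856 genes in all were called, against 2232 without it. The split also moved with the choice of probe set: 3 higher and 3 lower with the mean of a gene's probe sets, and 5 higher and 8 lower among 12 members when every probe set was tested on its own and a member could count in both directions. With the index as a covariate none of the 32 was called, while 280 genes in all were. The comparisons share arrays in pairs, so the counts of the 3 comparisons are not independent of each other.

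**Figure D1:**
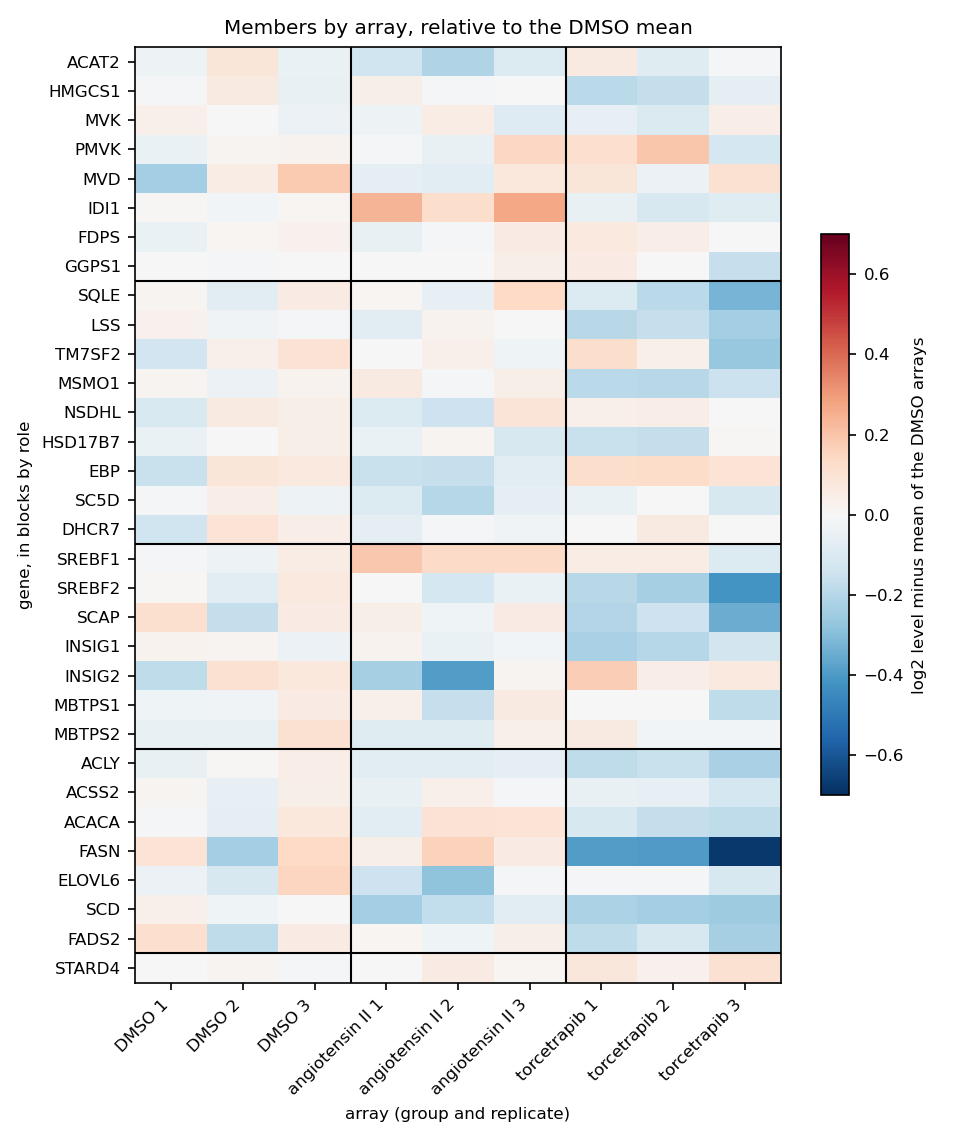
Heat map of the 32 measured members (rows, in blocks by role) on the 9 arrays (columns). Colour gives the log2 level minus the mean of the 3 DMSO arrays, blue for lower and red for higher, on a scale from -0.7 to 0.7. FASN is blue on the 3 torcetrapib arrays, most on replicate 3, and on DMSO replicate 2 as well.

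The number of members below their DMSO mean was 18, 22 and 24 of 32 on the torcetrapib arrays, 20, 21 and 14 on the angiotensin II arrays and 19, 16 and 8 on the DMSO arrays. By role, none of 8 mevalonate arm members, 2 of 9 sterol arm members, 1 of 7 regulators and 3 of 7 fatty acid members fell with torcetrapib, and STARD4 was not called, where 0.566% of all genes were called lower. All 7 fatty acid members had values below 0 against DMSO, with a median of -0.17. Of all genes tested, 39.1% had values above 0 in this comparison, with a median of -0.03.

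The mevalonate arm converts acetyl-CoA to isoprenoid pyrophosphates. IDI1, the isomerase that interconverts its C5 isoprenoid units, had log2 levels of 11.25, 11.23 and 11.26 with DMSO, 11.49, 11.37 and 11.52 with angiotensin II, and 11.19, 11.13 and 11.16 with torcetrapib. The 3 groups did not overlap, angiotensin II being highest and torcetrapib lowest. The rise with angiotensin II was 0.21 ± 0.04 (SE; 1.16-fold, adjusted p = 0.00416), and it was called with each array left out in turn and with the index as a covariate (0.21 ± 0.05, adjusted p = 0.0111). The torcetrapib change against DMSO was -0.08 (adjusted p = 0.427), and torcetrapib was lower than angiotensin II by a log2 difference of -0.29 ± 0.04 (adjusted p = 0.000263).

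The probe set behind these IDI1 values, 208881_x_at, carries the suffix that the array's maker gives to probes that may match other transcripts. A second one of that type, 204615_x_at, read 0.24 higher with angiotensin II. The other IDI1 probe sets had changes of -0.06 (242065_x_at) and -0.34 (233014_at), neither called. In all, 2 of the 4 IDI1 probe sets rose (adjusted over the 41091 probe sets), and the IDI1 call was lost when the probe sets were averaged or when this type was left out.

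HMGCS1 (probe set 221750_at), which makes the HMG-CoA from which mevalonate is formed, had levels of 11.15, 11.23 and 11.12 with DMSO, 11.20, 11.16 and 11.17 with angiotensin II, and 10.98, 10.9996 and 11.11 with torcetrapib. All torcetrapib arrays lay below all others, by a small margin over DMSO replicate 3. The torcetrapib change against DMSO was -0.14 (adjusted p = 0.161), and the difference from angiotensin II was -0.15 ± 0.04 (adjusted p = 0.0379). A dimmer HMGCS1 probe set, 205822_s_at, went the other way: 7.88, 10.25 and 8.31 with DMSO, 8.02, 8.19 and 8.52 with angiotensin II, and 10.18, 10.46 and 10.12 with torcetrapib. On it, DMSO replicate 2 read far above its fellow DMSO arrays and lay among the torcetrapib arrays, the same grouping as in the index. Its change with torcetrapib was 1.44 against DMSO, which was not called (adjusted p = 0.146), and 2.01 against angiotensin II (adjusted p = 0.0109 over the 41091 probe sets). The 2 HMGCS1 probe sets thus moved in opposite directions.

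No other mevalonate arm member was called in any comparison. ACAT2, the thiolase that starts the arm, had levels of 10.53, 10.64 and 10.51 with DMSO and 10.42, 10.35 and 10.46 with angiotensin II, a change of -0.15 ± 0.05 with an adjusted p of 0.128. The kinases MVK and PMVK, the decarboxylase MVD, and the prenyl synthases FDPS and GGPS1 had changes from -0.04 to 0.06 with torcetrapib and from -0.03 to 0.03 with angiotensin II. For FDPS, the 95% interval of the torcetrapib change ran from -0.05 to 0.12, and for MVD from -0.17 to 0.27.

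The sterol arm runs from squalene to cholesterol. LSS (probe set 202245_at), the cyclase that forms lanosterol, had levels of 10.97, 10.92 and 10.94 with DMSO, 10.86, 10.97 and 10.94 with angiotensin II, and 10.75, 10.78 and 10.70 with torcetrapib. The torcetrapib arrays were the lowest 3, and the other groups overlapped. LSS fell by 0.20 ± 0.04 on the log2 scale with torcetrapib (1.15-fold lower, adjusted p = 0.0319) and differed from angiotensin II by -0.18 (adjusted p = 0.0111). Its dimmer probe sets had torcetrapib changes of 0.02 and 0.17, neither called, so 1 of 3 fell.

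MSMO1, a methyl sterol oxidase that acts after lanosterol, had a single probe set, 209146_at. It read 10.82, 10.76 and 10.82 with DMSO, 10.86, 10.78 and 10.84 with angiotensin II, and 10.61, 10.60 and 10.65 with torcetrapib. Again the torcetrapib arrays were the lowest 3, and DMSO replicate 2 was the lowest of the others. The change was -0.18 ± 0.04 against DMSO (1.13-fold lower, adjusted p = 0.0467) and the difference from angiotensin II -0.21 ± 0.04 (adjusted p = 0.00344). When p was adjusted over all probe sets, MSMO1 was called against angiotensin II but not against DMSO. With the index as a covariate the MSMO1 change against DMSO was -0.15 (adjusted p = 0.675).

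SQLE (probe set 209218_at), the monooxygenase that oxidises squalene, had levels of 9.41, 9.32 and 9.45 with DMSO, 9.41, 9.33 and 9.53 with angiotensin II, and 9.30, 9.21 and 9.06 with torcetrapib. The torcetrapib arrays were the lowest, with replicate 1 just under DMSO replicate 2. The change against DMSO was -0.20 (adjusted p = 0.206), and the difference from angiotensin II, -0.24 ± 0.07, was called (adjusted p = 0.0413). Of the 4 SQLE probe sets, 3 were lower with torcetrapib than with angiotensin II. None of these 3 was called when p was adjusted over all probe sets. EBP (probe set 213787_s_at), the isomerase that moves the ring double bond, was the exception in direction: 10.91, 11.16 and 11.14 with DMSO, 10.91, 10.91 and 10.99 with angiotensin II, and 11.19, 11.20 and 11.16 with torcetrapib. DMSO replicate 1 lay with the angiotensin II arrays and the other DMSO arrays lay nearer to torcetrapib. EBP was 0.25 ± 0.06 higher with torcetrapib than with angiotensin II (adjusted p = 0.00869), but 0.04 with the index as a covariate, and a bright second probe set, 202735_at, read -0.06.

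The remaining measured sterol arm members, TM7SF2, NSDHL, HSD17B7, SC5D and DHCR7, were called in no comparison. Their changes ran from -0.10 (HSD17B7) to 0.03 (NSDHL) with torcetrapib and from -0.12 (SC5D) to 0.00 (TM7SF2) with angiotensin II. SC5D, a desaturase late in the pathway, had non-overlapping groups with angiotensin II, at 10.12, 10.18 and 10.10 with DMSO and 10.04, 9.93 and 10.06 with angiotensin II (adjusted p = 0.233).

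**Figure D2:**
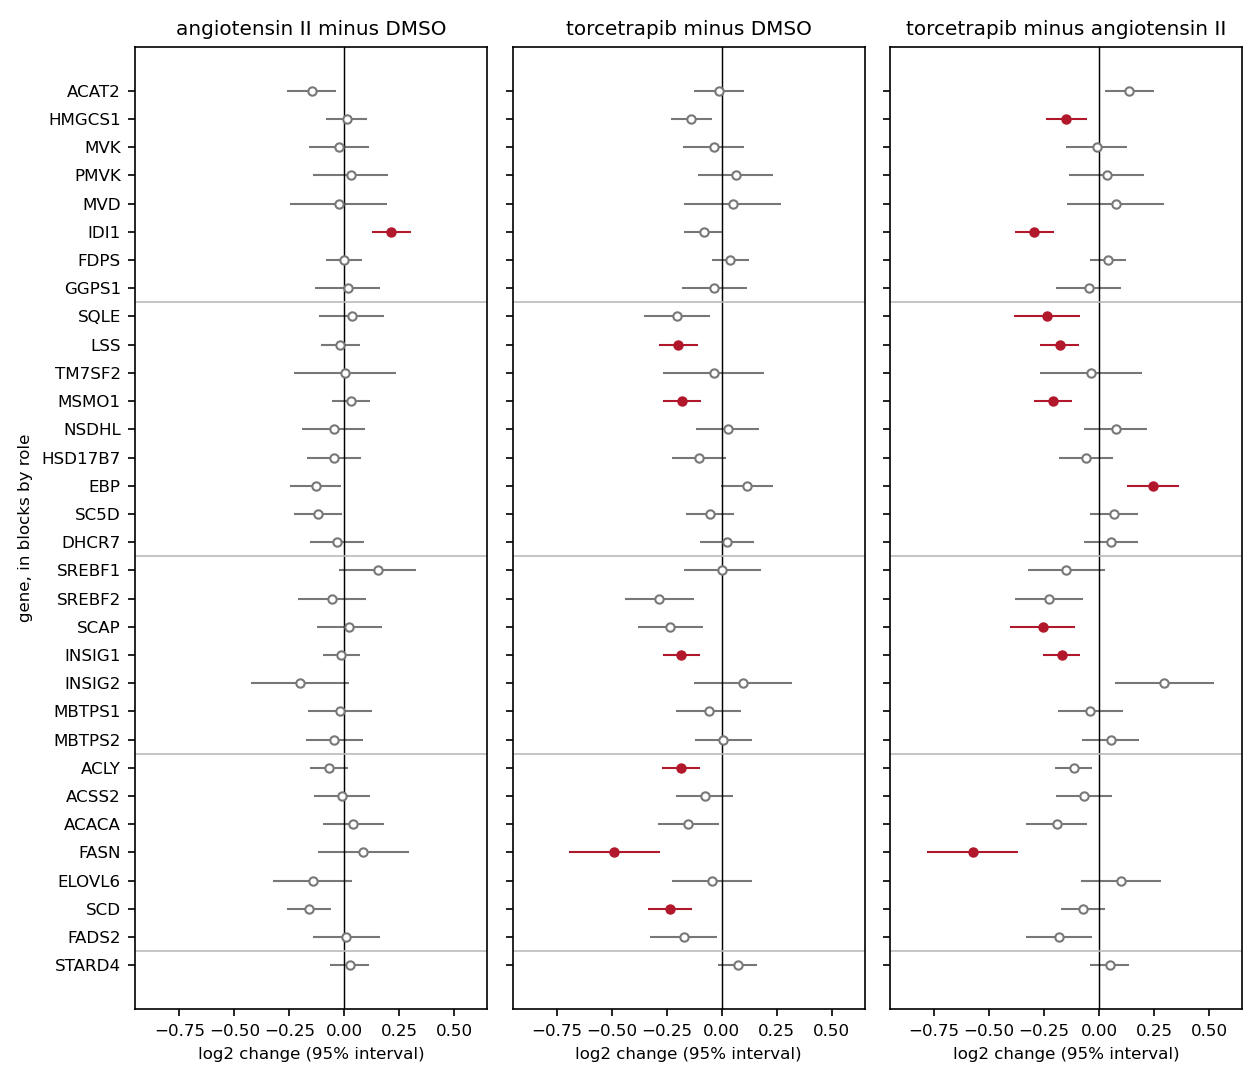
Log2 change of each of the 32 measured members in the 3 comparisons (panels), with 95% intervals, rows in blocks by role. Filled red points passed an adjusted p of 0.05 and open grey points did not. With torcetrapib against DMSO the 6 filled points all lie left of 0, from -0.49 (FASN) to -0.18 (MSMO1).

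Among the regulators, INSIG1 (probe set 201626_at), which retains SCAP and is itself an SREBP target, had levels of 11.27, 11.26 and 11.20 with DMSO, 11.27, 11.20 and 11.22 with angiotensin II, and 11.02, 11.05 and 11.12 with torcetrapib. The torcetrapib arrays were the lowest 3 and the other 2 groups overlapped. INSIG1 fell by 0.18 ± 0.04 with torcetrapib (1.14-fold lower, adjusted p = 0.0372) and differed from angiotensin II by -0.17 (adjusted p = 0.0116). Its size with the index as a covariate was -0.19, with an adjusted p of 0.375. A second probe set, 201627_s_at, read -0.09 with torcetrapib and another, 201625_s_at, read 0.20 in the opposite direction, with non-overlapping groups and no call. With p adjusted over all probe sets, 201626_at was not called against DMSO either.

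SREBF2 (probe set 201247_at) had the lowest adjusted p among the members called in no comparison. Its levels were 8.63, 8.54 and 8.69 with DMSO, 8.61, 8.50 and 8.57 with angiotensin II, and 8.42, 8.39 and 8.20 with torcetrapib. The torcetrapib arrays were the lowest 3, and the change was -0.28 ± 0.07 (adjusted p = 0.0772). Against angiotensin II it was -0.23 (adjusted p = 0.0596). Without DMSO replicate 2, SREBF2 was called lower than both DMSO (-0.32, adjusted p = 0.0273) and angiotensin II (adjusted p = 0.0421). Over 19 alternatives the SREBF2 change against DMSO ran from -0.33 to -0.05 and was called in 4. Against angiotensin II it ran from -0.27 to -0.06 and was also called in 4. SREBF1 had levels of 6.73, 6.71 and 6.80 with DMSO and 6.93, 6.88 and 6.88 with angiotensin II. The SREBF1 groups did not overlap, and the change of 0.15 was not called (adjusted p = 0.400). With torcetrapib it was 0.00.

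SCAP (probe set 212329_at), the escort protein, had levels of 10.34, 10.06 and 10.28 with DMSO, 10.27, 10.20 and 10.28 with angiotensin II, and 10.02, 10.08 and 9.88 with torcetrapib. DMSO replicate 2 lay within the torcetrapib range. The difference from angiotensin II was -0.26 ± 0.07 (adjusted p = 0.0259), -0.03 with the index as a covariate, and the change against DMSO was -0.23 (adjusted p = 0.135), or -0.32 without DMSO replicate 2 (adjusted p = 0.00690). INSIG2, the second retention protein, had levels of 7.51, 7.79 and 7.76 with DMSO, 7.46, 7.30 and 7.71 with angiotensin II, and 7.86, 7.73 and 7.76 with torcetrapib. Both treated groups overlapped with DMSO, and every torcetrapib array lay above every angiotensin II array. The INSIG2 change with angiotensin II was -0.20 (adjusted p = 0.376). Without angiotensin II replicate 3, INSIG2 was called higher with torcetrapib than with angiotensin II (0.41, adjusted p = 0.0181). The proteases MBTPS1 and MBTPS2 had changes of -0.06 and 0.01 with torcetrapib and -0.02 and -0.05 with angiotensin II, none called.

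Fatty acid synthesis begins with ACLY, which makes cytosolic acetyl-CoA from citrate. ACLY (probe set 201128_s_at) had levels of 10.93, 10.98 and 11.02 with DMSO, 10.91, 10.91 and 10.91 with angiotensin II, and 10.80, 10.82 and 10.75 with torcetrapib. The 3 groups did not overlap and the order was DMSO, angiotensin II, torcetrapib. The change with torcetrapib was -0.19 ± 0.04 (1.14-fold lower, adjusted p = 0.0344), and with the index as a covariate it was -0.22 (adjusted p = 0.163). The change with angiotensin II was -0.07 (adjusted p = 0.428). On 2 dimmer ACLY probe sets the torcetrapib change was 0.16 (210337_s_at) and -0.07 (201127_s_at), neither called. On 210337_s_at, DMSO replicate 2 and the torcetrapib arrays all read 9.88 or more, and the other arrays 9.74 or less.

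FASN (probe set 212218_s_at), the multienzyme that builds palmitate, had levels of 9.09, 8.75 and 9.13 with DMSO, 9.03, 9.15 and 9.05 with angiotensin II, and 8.60, 8.59 and 8.31 with torcetrapib. Torcetrapib arrays were the lowest 3, and DMSO replicate 2 lay between them and the other DMSO arrays. FASN fell by 0.49 ± 0.10 with torcetrapib (1.40-fold lower, or -28.7% in linear signal, adjusted p = 0.0217) and differed from angiotensin II by -0.57 ± 0.10 (1.49-fold lower, adjusted p = 0.00117). With the index as a covariate the change was -0.29 ± 0.12 (adjusted p = 0.748). With angiotensin II the change was 0.09 (adjusted p = 0.772). A dim second FASN probe set, 217006_x_at, read -0.01 with torcetrapib.

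SCD (probe set 200832_s_at), the desaturase that makes oleate, had levels of 10.75, 10.68 and 10.71 with DMSO, 10.48, 10.54 and 10.64 with angiotensin II, and 10.50, 10.48 and 10.47 with torcetrapib. Both treated groups lay below every DMSO array. The SCD change was -0.23 ± 0.05 with torcetrapib (1.18-fold lower, adjusted p = 0.0213) and -0.16 ± 0.05 with angiotensin II (adjusted p = 0.0530), and the 2 treatments differed by -0.07 (adjusted p = 0.358). Its other 3 probe sets did not fall with torcetrapib. SCD read 7.21, 8.45 and 7.61 with DMSO, 6.95, 6.87 and 7.50 with angiotensin II, and 8.19, 8.41 and 8.28 with torcetrapib on 211708_s_at, with DMSO replicate 2 again among the torcetrapib arrays. There the change was 0.54 against DMSO, not called, and 1.19 against angiotensin II (adjusted p = 0.00975 over the 41091 probe sets). The mean of the 4 SCD probe sets changed by 0.19 with torcetrapib (adjusted p = 0.636).

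The other fatty acid members were not called. ACACA, the carboxylase that commits acetyl-CoA to fatty acids, read 8.93, 8.87 and 9.01 with DMSO and 8.83, 8.77 and 8.76 with torcetrapib, a change of -0.15 (adjusted p = 0.328) with groups that did not overlap. FADS2, a desaturase of polyunsaturated fatty acids, changed by -0.17 (adjusted p = 0.297), with DMSO replicate 2 at 9.05 and the torcetrapib arrays from 9.0 to 9.12. ACSS2, which makes acetyl-CoA from acetate, changed by -0.08, and the elongase ELOVL6 by -0.04. STARD4, a cytosolic sterol carrier, had levels of 10.42, 10.44 and 10.40 with DMSO, 10.42, 10.48 and 10.43 with angiotensin II, and 10.50, 10.45 and 10.53 with torcetrapib. The STARD4 changes of 0.02 and 0.07 were not called, and the interval of the torcetrapib change ran from -0.02 to 0.16.

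**Figure D3:**
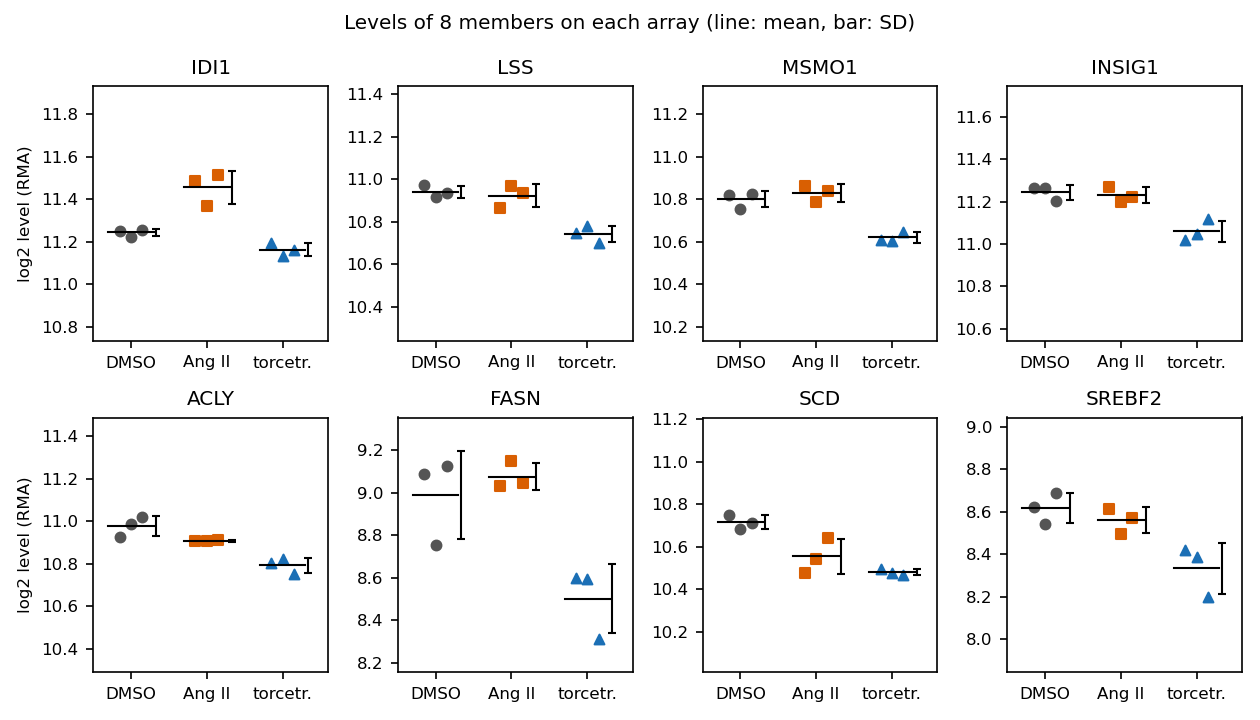
Log2 levels of IDI1, LSS, MSMO1, INSIG1, ACLY, FASN, SCD and SREBF2 on each array (points), by group, with the group mean (line) and SD (bar). Every panel spans the same log2 range. The torcetrapib points lie below the DMSO points in all 8 panels, and IDI1 is the panel in which every angiotensin II point lies above every point of both other groups.

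Probe sets of 1 member could differ along the index. The 4 arrays with the highest index, DMSO replicate 2 and the torcetrapib arrays, were set against the other 5. Of the 32 brightest member probe sets, 6 (18.8%) had all 4 arrays below the other 5, namely those of IDI1, SQLE, MSMO1, SCAP, FASN and FADS2, and 1 (EBP) had them above. Of the 37 other member probe sets, 5 had them above and 3 below. Over all 41091 probe sets with 1 gene, 6.09% had them above and 5.28% below. These include the dimmer probe sets of each gene, and the share over the brightest ones alone was not computed. LSS, INSIG1, ACLY and SCD were not among the 6, and on their brightest probe sets DMSO replicate 2 read 10.92, 11.26, 10.98 and 10.68, nearer to the other DMSO arrays than to the torcetrapib arrays. Dimmer probe sets of ACLY (210337_s_at) and SCD (211708_s_at and 211162_x_at) were among the 5 with the high-index arrays above. The torcetrapib group makes up 3 of the 4 high-index arrays, so a probe set lower with torcetrapib is favoured in advance in this split. How much of each change goes with the index was not tested beyond the fit with the index as a covariate.

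**Figure D4:**
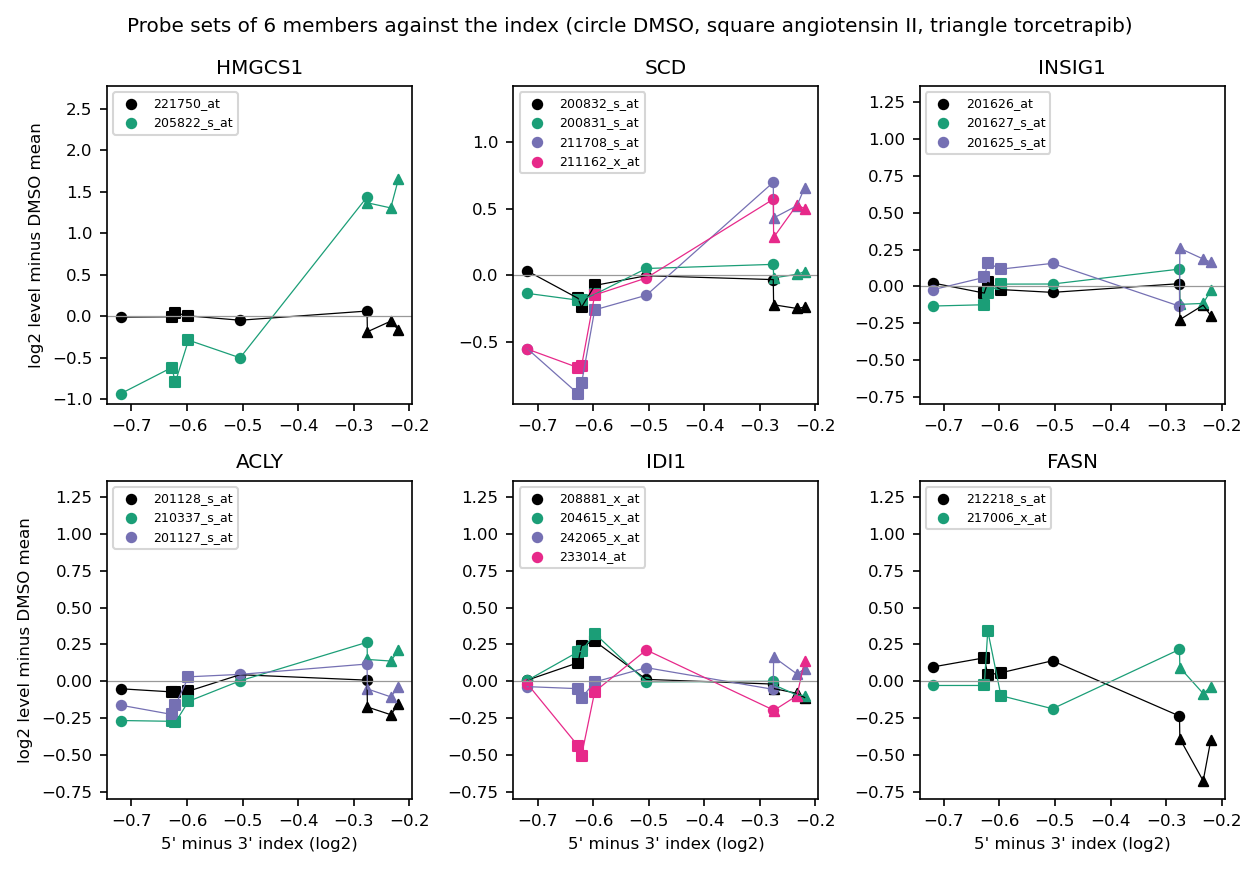
Log2 level minus the DMSO mean (vertical) against the 5′ to 3′ index (horizontal, log2) for every probe set of HMGCS1, SCD, INSIG1, ACLY, IDI1 and FASN. Colours are probe sets, circles DMSO, squares angiotensin II and triangles torcetrapib. One HMGCS1 probe set, 1 ACLY probe set and a pair of SCD ones are high on the 4 arrays with the highest index, 1 circle and 3 triangles. The brightest probe sets of these genes (black) are not.

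Further genes of SREBP turnover and action and of the isoprenoid branches were read as 2 lists. Of 23 measured genes of SREBP turnover and further SREBP targets, 1 rose and 1 fell with angiotensin II and none was called with torcetrapib (2 at an unadjusted p under 0.05 in limma, both lower). The angiotensin II shares, 1 of 23 each way, are near the 3.36% of all genes called higher and 2.76% called lower. FBXW7, the ubiquitin ligase subunit that marks nuclear SREBPs for breakdown, read 9.42, 9.20 and 9.29 with DMSO, 10.16, 9.98 and 10.05 with angiotensin II, and 9.24, 9.29 and 9.22 with torcetrapib. The angiotensin II arrays stood well apart, with a rise of 0.76 ± 0.06 (1.69-fold, adjusted p = 8.58e-07), and the FBXW7 change with torcetrapib was -0.05. RDH11, a retinol dehydrogenase, read 10.45, 10.50 and 10.49 with DMSO, 10.14, 9.96 and 10.04 with angiotensin II, and 10.37, 10.42 and 10.40 with torcetrapib, and fell by 0.44 ± 0.05 with angiotensin II (1.35-fold lower, adjusted p = 2.62e-05). Averaging its probe sets removed the RDH11 call (adjusted p = 0.106).

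Of 11 measured isoprenoid branch genes, 1 rose with angiotensin II and none was called with torcetrapib (2 at an unadjusted p under 0.05, both higher), where 3.36% of all genes were called higher with angiotensin II and 1.16% were called with torcetrapib. RABGGTB, a subunit of the enzyme that attaches geranylgeranyl groups to Rab proteins, read 9.25, 9.47 and 9.48 with DMSO, 9.68, 9.64 and 9.73 with angiotensin II, and 9.61, 9.60 and 9.61 with torcetrapib. Both treated groups lay above DMSO. RABGGTB rose by 0.28 ± 0.06 with angiotensin II (adjusted p = 0.00944), and its change of 0.21 with torcetrapib was not called (adjusted p = 0.137), but was without DMSO replicate 2 (adjusted p = 0.0458).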

How the data were processed

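Gene expression was measured on 9 arrays of H295R cells, 3 per group. The deposited values are log2 levels of probe sets; the authors used RMA, per the submitters' processing notes. Scanning and software versions are not given in the sources used. Of 54675 probe sets, 41091 carried 1 gene symbol, and the brightest of a gene was used (19775 genes). limma 3.58.1 in R 4.3.3 (lmFit, contrasts, eBayes with an intensity trend, two-sided) was fitted to all 9 arrays with 6 residual degrees of freedom, and p-values were Benjamini-Hochberg adjusted over all genes, with a threshold of 0.05. Scripts were tested on simulated data. The number of arrays limits the precision.

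Values per array are given for each member called in any comparison and for the member of each role group with the lowest p in each comparison against DMSO. SREBF2, SREBF1, ACAT2, SC5D and ACACA were added after their values were seen, as were the called genes of the other lists. Members, lists and alternatives were chosen with earlier results of these data known. Alternatives were variance moderation, a filter on dim genes, scaling, the choice of probe set, array weights, the arrays in the fit, the 5′ to 3′ index, the threshold and leaving out each array. Serial numbers in the titles run within groups, so processing order and treatment cannot be told apart.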

Additional observations from a re-analysis of the deposited data

How the results depend on the processing

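With angiotensin II, 1 member was called, and the count was 0 without the intensity trend, with the mean of all probe sets and without _x_at and _s_at probe sets. It was 2 with robust moderation, the dim filter, either rescaling, array weights and an adjusted p of 0.1, and 1 to 2 with an array left out. With torcetrapib against DMSO the count of 6 became 0 without the trend, with the mean of probe sets, with the index as a covariate and at 0.01. It became 2 without _x_at and _s_at probe sets and with only the groups compared, 11 with array weights, and 0 to 9 with an array left out. ACLY, FASN and SCD have only _x_at and _s_at probe sets, so they were not tested without them. In that setting LSS and INSIG1 kept their calls, and MSMO1 stayed at -0.18 with an adjusted p of 0.0531. Against angiotensin II the count of 9 became 3 without the trend, 16 with array weights, 0 with the index and 4 at 0.01, and 6 to 11 with an array left out. With array weights, angiotensin II replicate 1 weighed 6.15 and the other arrays 0.448 to 1.86. Counts over all genes moved as well. For torcetrapib against DMSO, 229 genes were called in the main fit, 1272 with array weights and 50 without the trend. For torcetrapib against angiotensin II, these counts were 2232, 6216 and 1492.

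The median member change with torcetrapib was -0.0097 with the mean of probe sets. Against angiotensin II the median was -0.0050 with centred arrays and 0.0067 with the mean of probe sets. With the mean of probe sets, HMGCS1 and SCD were 0.93 and 0.56 higher with torcetrapib than with angiotensin II. Both were called higher (adjusted p = 0.0213 and 0.0180), so the HMGCS1 call turned from lower to higher. On these means SCD was 0.19 higher with torcetrapib than with DMSO, which was not called. Without _x_at and _s_at probe sets, IDI1 read -0.34 with angiotensin II against DMSO, and torcetrapib minus angiotensin II was 0.28 for IDI1 and -0.057 for EBP. Beyond the different probe sets, the causes were not tested. Of 960 alternatives for single named genes, 794 kept direction and side of the threshold, 103 lost a call, 26 gained one, 6 reversed where a call was involved, and 31 turned direction with no call on either side. The 960 include results that were not called in the main fit. Against DMSO, the torcetrapib call held for LSS in 11 of 19 alternatives, MSMO1 in 6 of 19 and INSIG1 in 8 of 19. It held for ACLY and FASN in 9 of 18 each and for SCD in 10 of 18. FBXW7 was called in all 19 alternatives. No paired analysis was possible because the groups share no replicate numbers in the labels.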

Other observations

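A second probe set of MBTPS2, the site-2 protease gene, read 6.0, 6.70 and 6.22 with DMSO, 6.08, 5.85 and 6.06 with angiotensin II, and 6.70, 7.13 and 6.81 with torcetrapib, so that DMSO replicate 2 lay next to the torcetrapib arrays. Its torcetrapib minus angiotensin II difference was 0.88, where the brightest MBTPS2 probe set read 0.05. A second probe set of DHCR7, the reductase that completes cholesterol, read 9.90, 9.84 and 9.96 with DMSO, 9.84, 9.88 and 9.95 with angiotensin II, and 9.76, 9.69 and 9.68 with torcetrapib. All DHCR7 torcetrapib values there were the lowest, with a change of -0.19, while the brightest probe set changed by 0.02.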
